A study of Mus musculus with 5 samples.

Results

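The metallothioneins Mt1 and Mt2 and 5 metal transporters, Slc39a4, Slc39a8, Slc39a14, Slc30a1 and Slc30a10, were followed across 5 mouse liver arrays. The members were chosen by gene symbol or older synonym in the platform annotation, which gave 7 genes with 9 probes out of 16637 genes named on the array. Mt1 was read by probe mMC022171, Mt2 by mMC002127, Slc39a4 by mMC009882, Slc39a8 by mMC018861 and Slc30a10 by mMC011575. Slc39a14 had the probes mMR029449 and mMC013749, and Slc30a1 had mMC003684 and mMC013431.

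The groups were wild-type (WT) C57BL/6 mice on a high-fat diet with nordihydroguaiaretic acid (NDGA), WT mice on the high-fat diet alone, ob/ob mice on chow with NDGA, ob/ob mice on chow, and WT mice on chow. Per the labels, NDGA, a plant lignan that inhibits lipoxygenases, was given at 2.5 g per kg of food, all diets lasted 16 weeks, and the ob/ob mice, which lack functional leptin in every cell, were also on the C57BL/6 background. The sources used here give neither the age nor the sex of the mice. Each group is represented by RNA from 3 animals but by 1 array (Phalanx Mouse OneArray, 1 colour), so there are no replicates, no test can be run, and each difference below is between 2 arrays.

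Metallothioneins are small cysteine-rich proteins that bind zinc and copper in the cytosol, and in liver they are the main inducible store of zinc. Their genes are switched on by zinc through the transcription factor MTF-1, and also by glucocorticoids and by interleukin-6 through STAT3 during the acute phase response. ZIP proteins (the Slc39a family) move zinc into the cytosol, and ZnT proteins (the Slc30a family) move it out of the cytosol, to the outside or into vesicles. Several members carry other metals too: ZIP8 and ZIP14 also take up manganese, and ZIP14 iron, while ZnT10, the product of Slc30a10, exports manganese.

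The promoter windows of Mt2, Mt1 and Slc30a1, which encodes the zinc exporter ZnT1, are shown because these are textbook MTF-1 targets, and Mt2 held the largest differences among the members. The sequences are from RefSeq (GRCm38.p6) and run from 250 bases before to 50 after a transcript start, which for Mt1 and Slc30a1 lies downstream of the first base of the annotated gene. Capitals mark matches on either strand to the core of the metal response element that MTF-1 binds, searched as TGCACNC and as TGCGCNC.
Mt2 promoter window, chr8:94172368-94172667, + strand: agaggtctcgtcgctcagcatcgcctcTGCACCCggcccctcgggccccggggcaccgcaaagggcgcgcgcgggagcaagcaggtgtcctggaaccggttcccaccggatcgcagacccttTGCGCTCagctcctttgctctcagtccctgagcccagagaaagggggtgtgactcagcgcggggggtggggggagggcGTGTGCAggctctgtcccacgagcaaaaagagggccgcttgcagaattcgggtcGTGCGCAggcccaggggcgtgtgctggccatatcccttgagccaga
Mt1 promoter window, chr8:94178839-94179138, + strand: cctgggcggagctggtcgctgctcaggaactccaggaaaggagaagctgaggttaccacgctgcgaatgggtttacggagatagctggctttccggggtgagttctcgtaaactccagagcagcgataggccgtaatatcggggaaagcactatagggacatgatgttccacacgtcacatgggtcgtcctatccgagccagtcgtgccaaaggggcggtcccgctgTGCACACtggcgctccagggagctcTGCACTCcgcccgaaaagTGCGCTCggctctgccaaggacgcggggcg
Slc30a1 promoter window, chr1:191906531-191906830, + strand: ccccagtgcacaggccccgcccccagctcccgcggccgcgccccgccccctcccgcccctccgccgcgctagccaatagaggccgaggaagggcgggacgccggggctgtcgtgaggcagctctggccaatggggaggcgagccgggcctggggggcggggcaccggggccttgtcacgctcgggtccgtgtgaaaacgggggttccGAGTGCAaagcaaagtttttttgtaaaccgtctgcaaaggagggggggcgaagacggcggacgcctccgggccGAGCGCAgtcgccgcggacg

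The Mt2 window held 4 matches and the Mt1 window 3, and Slc30a1 had 2, both of them on the opposite strand. In Mt1 the matches began at -23, 2 and 20 with the start site counted as 0. That start lies 206 bases past the first base of the Mt1 gene and may be 1 of several. The offsets and the count for Mt1 depend on this choice of window. The core is short and common: 25.7% of the 32851 promoter windows in the table held at least 1 match, 7.11% at least 2, 1.97% at least 3 and 0.517% at least 4. The Slc30a10 window held 3 matches, of which a pair is 1 palindrome read on both strands, and the 2 windows of Slc39a8 held 0 and 1. The start sites of those Slc39a8 windows lie 8397 and 8775 bases past the first base of the gene. Windows were available for 5 of the 7 members, and Slc39a4 and Slc39a14 had none in the table. The letters TTCNNNGAA, a STAT site, occurred in none of the 6 windows and in 8.3% of all windows. The antioxidant response core TGACNNNGC occurred in 1 copy each for Mt2, Slc30a1 and the first Slc39a8 window, and in 12.4% of all windows. A match is a run of letters and not a measured binding site.

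Deposited values were taken as linear intensities with the background subtracted, as judged from values below 0 and a pile-up above 65000. The array medians were 47.0 for WT high-fat NDGA, 39.6 for WT high-fat, 71.0 for ob/ob chow NDGA, 38.1 for ob/ob chow and 38.8 for WT chow. The arrays were therefore quantile normalized, and differences were taken on log2(value + 50), which understates the change of dim probes. Without normalization the median difference of all expressed genes was 0.68 for ob/ob chow NDGA against ob/ob chow and between -0.15 and 0.03 for the other 3 comparisons, so unnormalized values of the ob/ob chow NDGA array are high for most genes. A gene counted as expressed when the mean of the 2 arrays reached the median over all genes, which left 8319. As a yardstick of probe noise, 2 bright probes of 1 gene differed with an SD per probe of 0.29 to 0.47 log2 units over 922 to 939 genes. This yardstick holds none of the spread between mice.

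**Figure D1:**
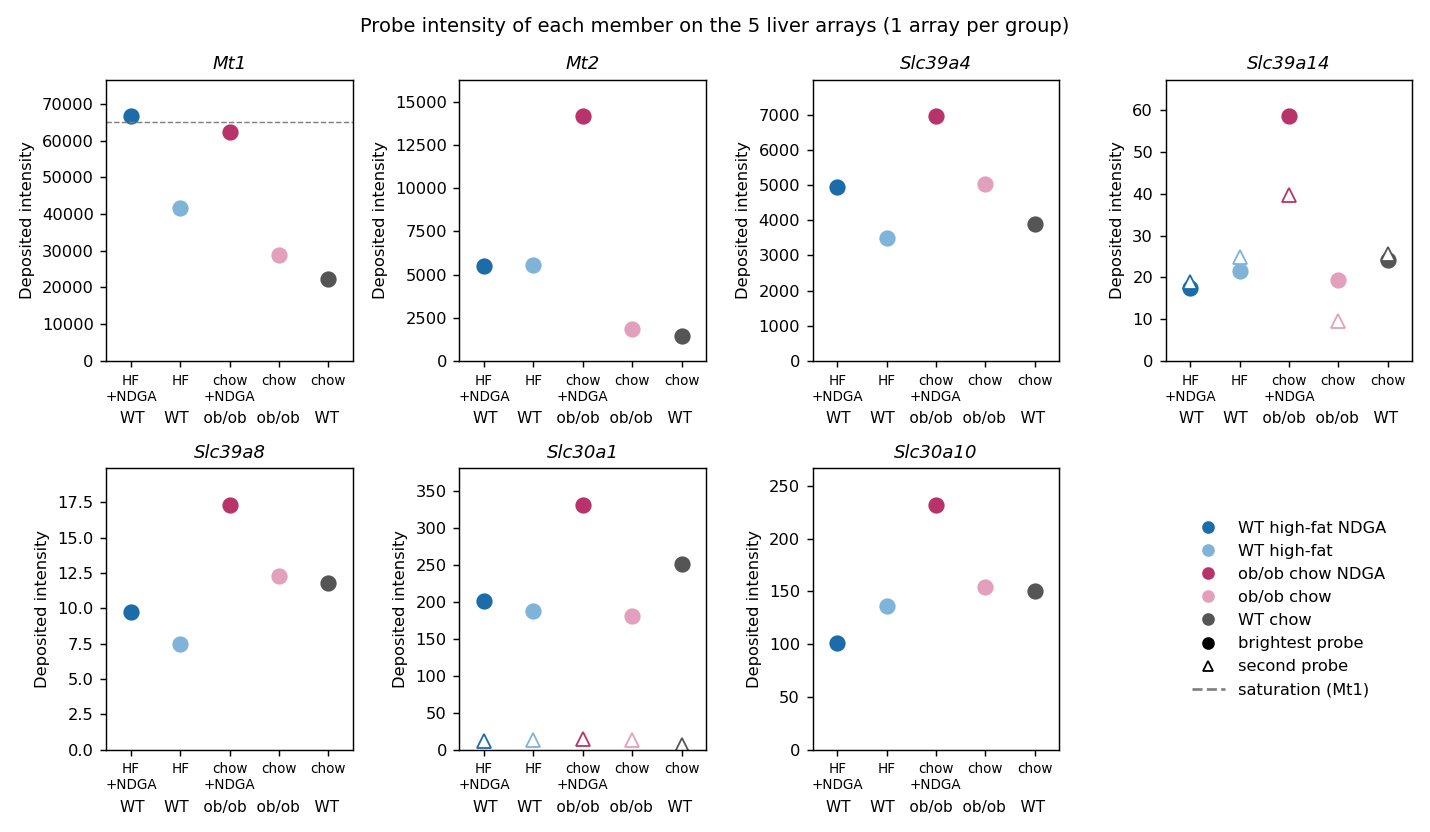
Deposited intensity (linear, arbitrary units) of every probe of the 7 members on the 5 arrays, 1 point per array. Circles are the brightest probe of a gene and open triangles its second probe. Mt2 lies at 14148 on ob/ob chow NDGA, at 5506 and 5550 on the WT high-fat arrays and at 1843 and 1439 on the chow arrays without NDGA, whereas Slc39a8 and Slc39a14 stay below 60 on all 5.

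Mt2 varied most among the members. Its deposited intensity was 5506 on WT high-fat NDGA, 5550 on WT high-fat, 14148 on ob/ob chow NDGA, 1843 on ob/ob chow and 1439 on WT chow, a span of 9.83-fold. The ob/ob chow NDGA array was on top, the high-fat pair next and the chow pair without NDGA lowest. On the normalized log2 scale the levels were 13.15 on ob/ob chow NDGA, 12.66 on WT high-fat NDGA, 12.50 on WT high-fat, 11.27 on ob/ob chow and 10.65 on WT chow. The step of 0.15 between the high-fat arrays was within the SD per probe, the step of 1.23 between WT high-fat and ob/ob chow was well beyond it, and those of 0.50 at the top and 0.62 between ob/ob chow and WT chow lay past the upper end of its range.

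Mt1 had an intensity of 66576 on WT high-fat NDGA, 41628 on WT high-fat, 62348 on ob/ob chow NDGA, 28721 on ob/ob chow and 22207 on WT chow. WT chow was the lowest array for Mt1 as for Mt2, but the top array was another one. The WT high-fat NDGA value is past 65000, where readings pile up, so it is taken as saturated and as a lower bound. The ob/ob chow NDGA value lies just under that limit. The highest normalized log2 level was 16.01 on WT high-fat NDGA and the lowest 14.57 on WT chow, a range of 1.44. That range is not exact, since the normalized top level rests on the rank of a saturated reading. Across the 5 arrays the normalized log2 levels of Mt1 and Mt2 had Pearson r = 0.81, a description over 5 points of 1 array each.

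Slc39a4 encodes ZIP4, known as the zinc importer of the gut and, when mutated in humans, as the cause of the zinc deficiency disease acrodermatitis enteropathica. Its probe was bright on every array, at 4953 on WT high-fat NDGA, 3488 on WT high-fat, 6950 on ob/ob chow NDGA, 5039 on ob/ob chow and 3888 on WT chow. The highest intensity was 1.99 times the lowest. On the normalized scale ob/ob chow was the top array at 12.75 and WT high-fat the lowest at 11.88, and each step between neighbouring arrays was between 0.07 and 0.35.

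Slc39a14 encodes ZIP14, the hepatocyte transporter that takes up zinc during the acute phase response. Its brighter probe read 17.6 on WT high-fat NDGA, 21.5 on WT high-fat, 58.5 on ob/ob chow NDGA, 19.3 on ob/ob chow and 24.2 on WT chow. The second probe read 19.0, 24.8, 39.7, 9.52 and 25.7 on the same arrays in that order. Both were below the threshold for expressed genes in every comparison, and with both the ob/ob chow NDGA array was highest before normalization. Slc39a8, which encodes ZIP8, read between 7.51 and 17.3 and was the dimmest member. Low probe signal here does not show that these transcripts were absent, since the sequence and performance of the probes are not known.

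Slc30a1 encodes ZnT1, the exporter of the plasma membrane. Its brighter probe read 201 on WT high-fat NDGA, 188 on WT high-fat, 331 on ob/ob chow NDGA, 180.5 on ob/ob chow and 251.5 on WT chow. The second probe stayed between 6.68 and 14.6, near background, so the brighter probe alone carries the values. Normalized, the 5 arrays of Slc30a1 lay within 0.37 log2 units, with WT chow on top at 8.37. Slc30a10 read 101 on WT high-fat NDGA, 136 on WT high-fat, 232 on ob/ob chow NDGA, 154 on ob/ob chow and 151 on WT chow. After normalization it spanned 0.66, and WT high-fat NDGA, at 7.26, lay apart at the low end.

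In all, 5 of the 7 members, Mt1, Mt2, Slc39a4, Slc30a1 and Slc30a10, were expressed in each of the 4 comparisons. The comparisons share arrays: WT chow and WT high-fat each enter 2 of them, as does ob/ob chow, so the values of different comparisons are not independent.

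WT high-fat against WT chow asks what the diet changed. Mt2 was 3.62-fold higher on the high-fat array (log2 difference 1.86) and Mt1 1.73-fold higher (0.79). Mt2 ranked 18 from the top among 8319 expressed genes and was the 1 member at least 2-fold higher, where 2.13% of all expressed genes were at least 2-fold higher. No member was at least 2-fold lower, against 1.35% of expressed genes. Slc39a4 was at -0.20, Slc30a10 at -0.09 and Slc30a1 at -0.34, each within the SD per probe of 0.36 for this comparison. Mt2 thus stood 1.06 log2 units above Mt1, a gap nearly the same without normalization (1.01). The Mt2 difference lay between 1.81 and 1.93 under all 8 alternative settings tried for it, and that of Mt1 between 0.79 and 0.92.

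WT high-fat NDGA against WT high-fat asks what NDGA changed on that diet. The metallothioneins parted here: Mt1 was 1.57-fold higher with NDGA (log2 difference 0.65, and 0.54 to 0.91 among the settings), while Mt2 was at 0.15. The NDGA reading of Mt1 was saturated, so its difference without normalization (0.68) is a lower bound of the unscaled difference only. From the same reading, the difference was 0.56 with median centring and 0.54 when scaled to the 75th percentile. Quantile normalization sets the level by rank, and the true order of the 24 saturated probes on that array is not known. The normalized difference is therefore not exact and is no bound. The sign of Mt2 depended on the scaling, with 0.15 after quantile normalization, -0.01 without normalization, -0.13 with median centring and -0.15 when arrays were scaled to their 75th percentile. Slc39a4 was higher by 0.62, beyond the SD per probe of 0.33, but at 0.38 with median centring and 0.37 with scaling to the 75th percentile. Slc30a10 was lower (-0.41, or -0.30 to -0.51 among the settings) and Slc30a1 was at -0.03. None of the members was at least 2-fold higher or lower, compared with 0.914% and 1.57% of expressed genes.

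ob/ob chow against WT chow asks what leptin deficiency changed on chow. Mt1, Mt2 and Slc39a4 were 1.55-fold, 1.54-fold and 1.59-fold higher in ob/ob, at log2 differences of 0.63, 0.62 and 0.67, so the metallothioneins and the importer lay close together. Without normalization the 3 differences were 0.37, 0.35 and 0.37, close to the SD per probe of 0.29. Slc30a1 was at -0.26 and Slc30a10 at 0.16. No member reached 2-fold, where 1.03% of expressed genes were at least 2-fold higher and 1.82% at least 2-fold lower. Set beside the diet, the Mt2 difference in ob/ob mice was 0.62 where the high-fat array had 1.86, and Mt1 had 0.63 and 0.79. Both comparisons share the WT chow array, and the difference between them was not tested.

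ob/ob chow NDGA against ob/ob chow asks what NDGA changed in genetic obesity. Mt2 was 3.69-fold higher with NDGA (log2 difference 1.88) and ranked 13 from the top among expressed genes. Mt1 was at 0.28, below the SD per probe of 0.47, and its probe was near saturation on the NDGA array. Mt2 was again the 1 member at least 2-fold higher, but 6.80% of all expressed genes were so in this comparison, and 0.493% were at least 2-fold lower. Slc39a4 was at -0.59, beyond the SD per probe, Slc30a10 at -0.18 and Slc30a1 at 0.04.

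Scaling mattered most in this comparison. Without normalization Mt2 was at 2.91 and Mt1 at 1.12, and median centred they were at 2.45 and 0.66. The deposited ratio was 7.68 for Mt2 and 2.17 for Mt1. Slc39a4 took opposite signs: -0.59 after quantile normalization, -0.36 scaled to the 75th percentile, 0.00 median centred and 0.46 without normalization. Its direction is therefore not settled, and the same holds for Slc30a10, which was at 0.46 without normalization. For Mt2 the direction did not depend on the setting. The NDGA difference of Mt2 was 1.88 in ob/ob mice on chow and 0.15 in WT mice on high-fat diet, while Mt1 had 0.28 and 0.65. The diets differ as well as the genotypes, and no test of these contrasts is possible with 1 array each.

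**Figure D2:**
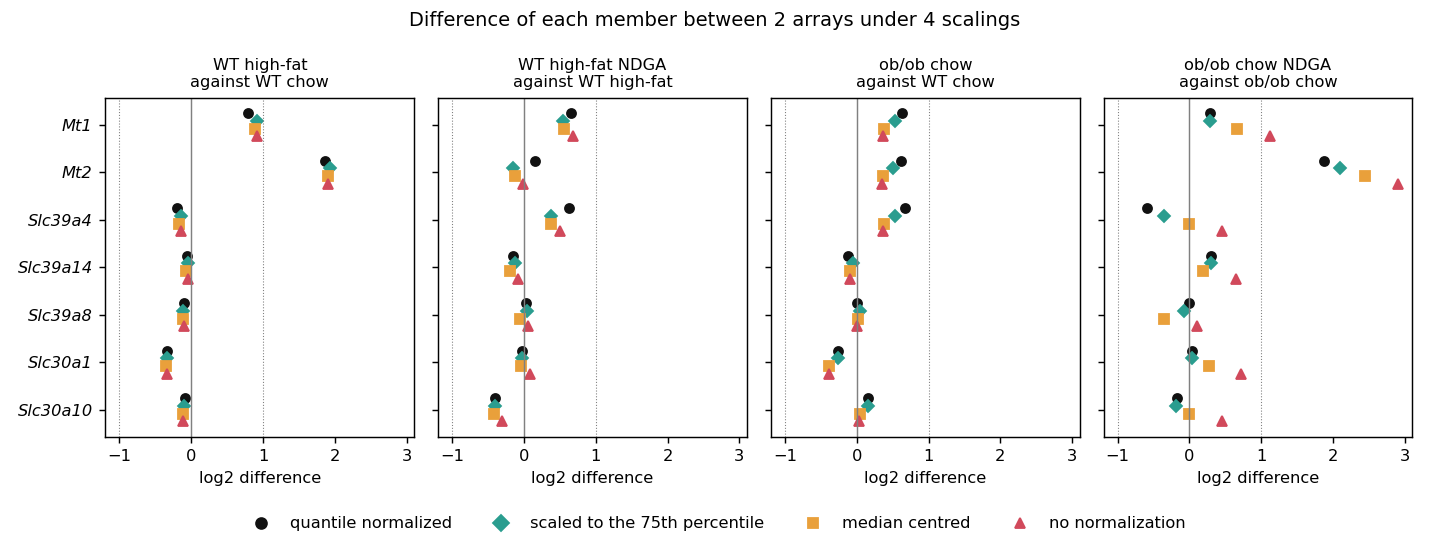
Log2 difference of each member (brightest probe) in the 4 comparisons, as quantile normalized and under 3 other scalings. Dotted lines mark 2-fold. Mt2 lies near 1.9 for the high-fat diet under every scaling shown and between 1.88 and 2.91 for NDGA in ob/ob, where Slc39a4 lies on either side of 0.

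**Figure D3:**
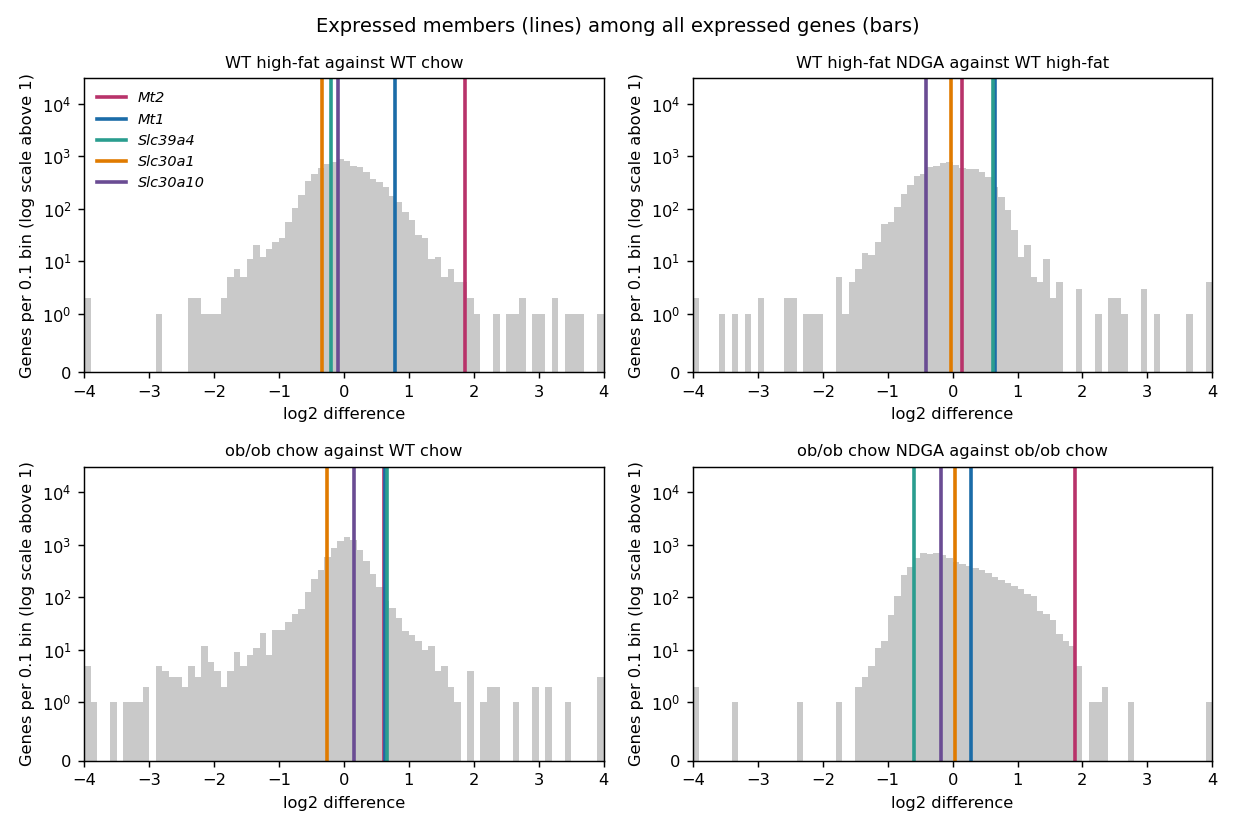
Log2 differences of all 8319 expressed genes in each comparison (grey bars, genes per bin of 0.1, log scale, values beyond 4 in the end bins) with the 5 expressed members as lines. Mt2 lies in the right tail in the first and last comparison, and in ob/ob against WT the lines of Mt1, Mt2 and Slc39a4 nearly coincide.

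Of the 21 other metallothionein, regulator, ZIP and ZnT genes on the array, 13 or 14 were expressed in each comparison. Beyond the SD per probe, 4 were higher and 3 lower for high-fat diet, 2 and 5 for NDGA on it, 2 and 0 for ob/ob, and 3 and 2 for NDGA in ob/ob. The share of all expressed genes beyond the same SD was not counted, so these counts cannot say whether the family differs from other genes. Of the metallothionein and regulator genes outside the members, Mt4, known from squamous epithelia, and Mtf1, which encodes MTF-1, were expressed, and Mt3, the brain metallothionein, was dim. Mt4 was at -0.40 for high-fat diet, 0.19 for NDGA on it, -0.19 for ob/ob and -0.06 for NDGA in ob/ob. Mtf1 was at -0.08, 0.00, 0.05 and -0.55 in the same comparisons, the last at -0.33 as the mean of its probes. Mt1 to Mt4 lie in 1 cluster on chromosome 8.

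Among the other ZIP genes, 10 of 11 listed were on the array and 6 or 7 were expressed. None was at least 2-fold apart for high-fat diet or for NDGA on it, where between 0.914% and 2.13% of all expressed genes were in either direction. The medians were 0.31 and -0.28, beside -0.01 and -0.03 for all expressed genes. Slc39a1, a plasma membrane importer, was at 0.46, -0.11, 0.26 and 0.01 in the 4 comparisons. Slc39a11 was at 0.49, -0.65, 0.28 and 0.64. Slc39a9, of the Golgi, was at 0.69 and -0.62 in WT mice and 0.04 and 0.89 in ob/ob, with smaller values as the mean of its 3 probes (0.20, -0.29, -0.06 and 0.41).

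Slc39a7, which releases zinc from the endoplasmic reticulum, was at 0.16, -0.34, 0.34 and 0.03 in the same 4 comparisons. Slc39a13 was between -0.07 and 0.16 and Slc39a6 between -0.32 and 0.12. Slc39a2 was the 1 ZIP gene at least 2-fold apart, higher in ob/ob (3.19) and lower with NDGA in ob/ob (-3.34). Of all expressed genes, 1.03% were at least 2-fold higher in ob/ob and 0.493% lower with NDGA in ob/ob. Slc39a2 counted as expressed only in the comparisons that hold the ob/ob chow array, so it passed the filter through that array. Both differences come from that 1 reading. It rested on a single probe that read 687 on ob/ob chow and between 43.0 and 65.5 on the other 4 arrays.

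Among the 8 other ZnT genes, 4 to 6 were expressed and none was at least 2-fold apart in any comparison. At most 6.80% of all expressed genes were at least 2-fold higher in a comparison, and at most 1.82% lower. Slc30a5 and Slc30a7, which load zinc into the early secretory pathway, were lower with NDGA on high-fat diet (-0.64 and -0.62), and Slc30a9, of mitochondria, and Slc30a8, best known from insulin granules, were higher (both 0.60). The last 2 were at 0.27 and 0.29 as means of their probes. In ob/ob mice with NDGA, Slc30a5 and Slc30a7 were both at 0.28, and Slc30a6, also of the secretory pathway, was at 0.63.

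Metallothioneins respond to acute phase signals, so their values were set beside 20 or 21 expressed acute phase genes. The list median was 0.51 for high-fat diet, -0.49 for NDGA on it, 0.04 for ob/ob and 0.49 for NDGA in ob/ob. With NDGA on high-fat diet, Lcn2, the iron-sequestering lipocalin, was at -2.48. It was the 1 gene of the list at least 2-fold lower, beside 1.57% of all expressed genes. Mt1 was higher there (0.65, saturated) and Mt2 lay near 0, with a sign that depended on the scaling. In the other comparisons Lcn2 was higher, by 3.52 for the diet, 1.94 for ob/ob and 1.12 for NDGA in ob/ob. The fibrinogen chain genes Fgb and Fgg were lower for high-fat diet (-1.31 and -1.24). Itih3, which encodes a plasma protein that binds hyaluronan, was at 1.38 and Cp, the copper-carrying ferroxidase ceruloplasmin, at 1.67 for NDGA in ob/ob, the second at 0.82 as the mean of its probes. For high-fat diet, 1 of 20 list genes was at least 2-fold higher and 2 lower, beside 2.13% and 1.35% of all expressed genes. In ob/ob 1 of 20 was higher, beside 1.03%, and with NDGA in ob/ob 3 of 20, beside 6.80%.

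Of 15 genes that glucocorticoids induce, 5 or 6 were expressed. Their median was 0.64 for high-fat diet, 0.04 for NDGA on it, 0.56 for ob/ob and 0.60 for NDGA in ob/ob. Those at least 2-fold apart by the brightest probe were Igfbp1, which encodes a carrier of insulin-like growth factors, with NDGA in ob/ob (1.99), and Cdkn1a, a cell cycle inhibitor, in ob/ob (1.30). Of all expressed genes, 6.80% were at least 2-fold higher with NDGA in ob/ob and 1.03% in ob/ob. For high-fat diet the list ranged from -0.92 for Pck1, the enzyme that controls glucose production, to 0.90 for Cdkn1a. As means of their probes, Pck1 was at -1.09 and Cdkn1a at 1.37 for that diet, past 2-fold. By the same measure Cdkn1a was at 1.71 in ob/ob, and Lpin1 at 1.04 for NDGA in ob/ob (0.69 by its brightest probe).

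Glutathione and oxidative stress genes, which share inducers with metallothioneins, had medians of 0.23, -0.60, 0.06 and 0.48 in the 4 comparisons, over 8 expressed genes. Srxn1, which repairs peroxiredoxins, was at 1.63 for the diet, -1.12 for NDGA on it, 1.08 for ob/ob and 1.43 for NDGA in ob/ob. As the mean of its 3 probes it was at 1.26, -0.91, 0.89 and 1.38. Hmox1, the heme oxygenase, was at -1.09 with NDGA on high-fat diet. Osgin1, an inhibitor of growth that oxidative stress induces, was lower with NDGA on both backgrounds, at -1.49 on high-fat diet and -2.34 in ob/ob. For NDGA on high-fat diet, 3 of these 8 genes were at least 2-fold lower, beside 1.57% of all expressed genes. Srxn1, 1 of the 3, fell short of 2-fold as the mean of its probes. Neither metallothionein was lower by more than 0.15 under any setting, and a link between them and this list was not tested.

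**Figure D4:**
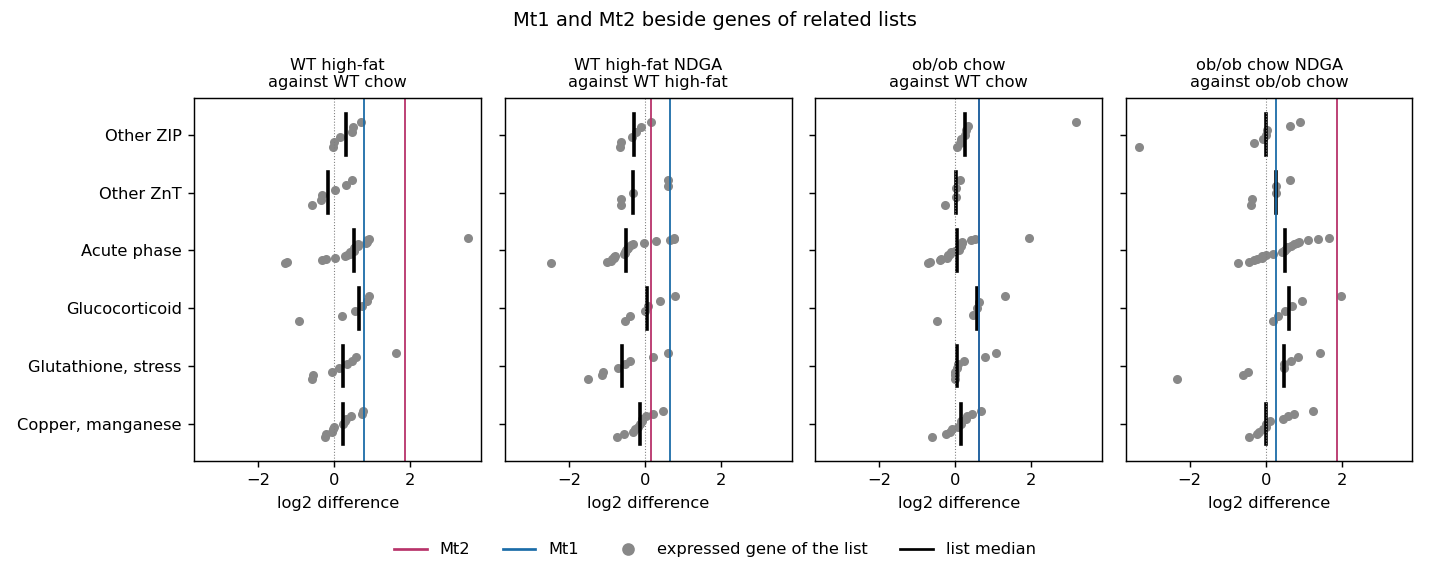
Log2 differences of the expressed genes of 6 related lists (grey points, black bars for list medians) with Mt2 and Mt1 as vertical lines, which coincide in ob/ob against WT. With NDGA on high-fat diet the medians of the acute phase and glutathione lists lie at -0.49 and -0.60, and Mt1 (saturated) and Mt2 at 0.65 and 0.15, as quantile normalized.

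The genes most like each metallothionein were sought among 1417 expressed genes whose normalized level spanned at least 1 log2 unit over the 5 arrays. For Mt2 the highest Pearson r was that of Mogat1 (0.986), an enzyme of triglyceride synthesis. Acsm3, a medium-chain acyl-CoA synthetase, had 0.985, Mknk2, a kinase of the translation factor eIF4E, 0.978, and Slc35f5 and Mtln, a mitochondrial micropeptide, 0.971 each. Mogat1 read 385 on WT high-fat NDGA, 287 on WT high-fat, 919 on ob/ob chow NDGA, 144 on ob/ob chow and 79.8 on WT chow.

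For Mt1 the most alike were Ankib1 (0.941), Lpin1 (0.940), which makes diacylglycerol, Tlr5 (0.940), the flagellin receptor, Rgs16 (0.933), a regulator of G protein signalling, and Aacs (0.912), which turns ketone bodies to lipid synthesis. Lpin1 read 18248 on WT high-fat NDGA, 11893 on WT high-fat, 29153 on ob/ob chow NDGA, 8730 on ob/ob chow and 7742 on WT chow. Each r rests on 5 points and was picked as the highest of 1417, so it describes these arrays only.

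All 5 hepatocyte genes on the array were above an intensity of 50 on all 5 arrays. Alb was saturated on all arrays but ob/ob chow, and Apoa1 (65763) on ob/ob chow NDGA, so their differences for NDGA in ob/ob (-0.04 and 0.35) are not exact. Ttr, Cps1 and Fah were at 0.72, 1.71 and 0.62 there. The median of the 5 was 0.62 for NDGA in ob/ob (1.70 without normalization) and -0.12 for NDGA on high-fat diet. In ob/ob this median was as high as those of the acute phase, glucocorticoid and glutathione lists. The part of the hepatocyte difference in the Mt2 value was not tested.

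Skeletal muscle markers were higher on both NDGA arrays. Without Tnnt3, the summed intensity of the other 7 genes was 4941 on WT high-fat NDGA, 116 on WT high-fat, 1318 on ob/ob chow NDGA, 116 on ob/ob chow and 116 on WT chow. Tnnt3, a troponin gene, had another order, with 215 on WT high-fat NDGA, 365 on WT high-fat, 1813 on ob/ob chow NDGA, 783 on ob/ob chow and 64.7 on WT chow. With it, the sums over 8 genes were 5157, 480.3, 3130, 899 and 181 on the same arrays in that order. Between WT high-fat NDGA and WT high-fat, Mt1 read 66576 and 41628, Slc39a4 4953 and 3488, and Mt2 5506 and 5550. The part of muscle RNA in these values was not tested.

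Macrophage markers, 12 genes, had deposited intensities that summed to 5989 on WT high-fat NDGA, 10770 on WT high-fat, 20353 on ob/ob chow NDGA, 11376 on ob/ob chow and 6803 on WT chow, with 1 of 12 below 50 on each array. After normalization their median was 0.81 for high-fat diet, -0.96 for NDGA on it, 0.89 for ob/ob and 0.11 for NDGA in ob/ob. The last was at 0.95 without normalization. The stellate cell sum over 9 genes was 4806, 6459, 9714, 4587 and 2740 on the same arrays in that order. The normalized stellate medians were 1.04, -0.75, 1.11 and 0.33 in the same 4 comparisons. As means of probes they were 0.23, -0.56, 0.44 and 0.18. The endothelial sum over 6 genes lay between 16721 and 28817, with normalized medians of 0.29, -0.39, 0.40 and -0.10. The part of these cells in the metallothionein values was not tested. In whole liver, fewer cells of a type and less RNA per cell cannot be told apart.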

How the data were processed

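Liver RNA was labelled with Cy5 and hybridised to 1-colour arrays, per the labels' protocols. The value table deposited by the authors holds linear probe intensities for 29922 probes, as judged from values below 0 and a pile-up above 65000. The sources used here name no scanner, background correction or scaling, and do not say whether RNA of the 3 animals was pooled. Of the probes, 21020 carried 1 gene symbol, 0 several, and 8902 are unnamed here. Symbols were updated through RefSeq (GRCm38.p6): 17558 were current, 3410 replaced through a unique synonym and 52 kept.

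Values were quantile normalized over 5 arrays and taken as log2(value + 50). The brightest probe by mean stood for a gene. Genes at least 2-fold apart were counted among those whose mean over the 2 arrays reached the median. No test was possible with 1 array per group, which limits precision throughout. Another 8 settings of scaling, offset, probe choice, floor and filter were tried, and 2 more scalings chosen after seeing the data. The steps were tested on simulated arrays. Python 3.11.15, NumPy 2.4.6, pandas 2.3.3 and SciPy 1.17.1 were used. The members, the 7 gene lists, the offset and the 5 marker lists were chosen with earlier results of these data known. Named genes are the members, list genes at least 2-fold apart, expressed ZIP, ZnT and metallothionein genes, the 5 genes most like Mt1 and Mt2 each, and markers. Pck1, Slc40a1, Slc11a2 and Sod2 were picked after seeing the data. Probe sequences were not used here, so cross-hybridisation between the metallothioneins was not examined.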

Additional observations from a re-analysis of the deposited data

How the results depend on the processing

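With 1 array per group there is no spread between replicates, so a difference counts as moved when it shifted by more than the SD per probe. Of the alternative values for the 7 members, 209 stayed within it and 8 moved. The count of 209 overstates stability, since 78 equalled the reported value at 2 decimals, 46 of them under the mean of probes or the floor, which leave most members' probes as they are. No paired analysis was possible because each group had 1 array. For ob/ob chow NDGA against ob/ob chow without normalization, Mt2 was at 2.91, Mt1 at 1.12, Slc39a4 at 0.46, Slc30a1 at 0.72 and Slc30a10 at 0.46. Median centred, Mt2 was at 2.45 and Slc39a4 at 0.00. For ob/ob chow against WT chow without normalization, Slc39a4 was at 0.37. Without normalization the median of all expressed genes was itself at 0.68 for NDGA in ob/ob and at -0.15 for ob/ob against WT.

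Counts of genes at least 2-fold higher for NDGA in ob/ob were 566 as quantile normalized, 2703 without normalization, 1248 median centred and 310 under a stricter filter, at the 75th percentile of brightness. Those at least 2-fold lower were 41, and 5 without normalization, 6 median centred and 22 scaled to the 75th percentile. For ob/ob against WT, 86 were higher, and 46 without normalization or 47 median centred, while 151 were lower, and 100 with the stricter filter. That filter also left 115 of 177 higher for high-fat diet and 46 of 76 for NDGA on it, since fewer genes enter. Leaving the ob/ob chow NDGA array out of the normalization moved none of the members in the other 3 comparisons. Dim probes (Slc39a8, Slc39a14 and the second Slc30a1 probe) can show no difference of useful precision.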

Other observations

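Copper and manganese handling genes neighbour the members in function. Of 11 expressed genes, none was at least 2-fold apart for high-fat diet, NDGA on it or ob/ob. Of all expressed genes, between 0.914% and 2.13% were so in either direction in those comparisons. With NDGA in ob/ob, 1 of the 11 was at least 2-fold higher, beside 6.80% of all expressed genes, so the counts do not set this list apart. That gene was Commd1, needed for copper export to bile, at 1.25 (2.16 without normalization), with intensities of 3571 on ob/ob chow NDGA and 759 on ob/ob chow. Slc40a1, the iron exporter ferroportin, was at 0.74 for high-fat diet, -0.56 for NDGA on it, 0.69 for ob/ob and 0.02 for NDGA in ob/ob. Slc11a2, which imports iron and manganese, was between -0.25 and 0.49 in the 4 comparisons, and Sod2, the manganese superoxide dismutase, between -0.25 and 0.59.

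As Mt2 minus Mt1, the differences lay 1.06 log2 units apart for high-fat diet and -0.49 for NDGA on it. They lay -0.01 apart for ob/ob and 1.60 for NDGA in ob/ob. The gap of -0.49 rests on the saturated Mt1 reading and is not exact. Without normalization the gap was 1.01 for high-fat diet, -0.69 or further for NDGA on it, -0.02 for ob/ob and 1.79 for NDGA in ob/ob. Mt1 was at 62348 on the ob/ob chow NDGA array and taken as saturated at 66576 on the WT high-fat NDGA array. The part of saturation in these gaps was not tested.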
